A study of Mus musculus with 6 samples.

Results

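The striated actins, tropomyosins and actinins described here are 7 genes of the muscle sarcomere: Acta1, Actc1, Tpm1, Tpm2, Tpm3, Actn2 and Actn3. They were chosen by name, and they are 7 of the 18089 genes and 31 of the 58843 transcripts measured. A gene's count is the sum of the estimated reads of its RefSeq transcripts. RNA came from ischemic gastrocnemius muscle of 3 WT and 3 Gpr174-/Y (GPR174-KO) mice, all male C57BL/6 animals of 8 to 10 weeks, taken 7 days after hindlimb ischemia (HLI), in which the femoral artery of 1 leg is interrupted. Gpr174 encodes an X-linked G protein-coupled receptor for lysophosphatidylserine, and the deletion affects the whole body, not muscle alone. No uninjured muscle was sequenced, so both groups share the ischemia and each difference is between genotypes within injured tissue.

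Thin filaments are the actin cables along which myosin pulls. Their core is a polymer of striated actin, with skeletal actin (Acta1) prevailing in adult limb muscle and cardiac actin (Actc1) in the heart and in developing or regenerating skeletal muscle. Tropomyosin dimers lie along the filament and, with troponin, decide whether myosin may bind: Tpm1 encodes the alpha chain, Tpm2 the beta chain and Tpm3 the slow-fibre alpha chain, and each gene also gives non-muscle forms through other start and end exons. Alpha-actinins anchor the filament ends at the Z-disc, with Actn2 used in all striated fibres and Actn3 in fast glycolytic ones. The study compared the genotypes to find genes that lie downstream of the receptor after ischemia.

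The libraries held between 18417107 and 18695036 counts in WT and between 19173051 and 19394505 in Gpr174-/Y muscle, so depth does not limit genes at these levels. The reads on Gpr174 itself were 8, 2 and 5 in WT and 1, 0 and 0 in Gpr174-/Y (replicates 1, 2 and 3), too few to enter the test. Among 3881 abundant genes, 88.0% in WT and 74.7% in Gpr174-/Y had their middle value in replicate 2, as did 7 and 6 of the 7 genes described here. Results are therefore also given for replicates 1 and 3 alone. Labels say that the samples are separate but not how the libraries were batched. Markers of mature muscle fibres were all present, and their summed level was 80321 to 129035 CPM (counts relative to library size, after TMM scaling) in WT and 35198 to 37301 CPM in Gpr174-/Y. All 11 of those markers fell at an adjusted p under 0.05 by edgeR, as did 27.6% of all genes tested. Their median log2 fold change was -1.49. In whole muscle, fewer fibres and less RNA per fibre cannot be told apart.

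The sequences that set these relatives apart come first, because reads can be assigned only where the genes differ. Acta1 and Actc1 each have 1134 coding bases, of which 157 differ (86.2% identity), and the 377 residues they encode differ at 4 positions (98.9% identity). The 90 coding bases with the most differences are bases 406 to 495 of each coding sequence (GENCODE M21 transcripts), with the 20 differing bases in capitals:
Acta1: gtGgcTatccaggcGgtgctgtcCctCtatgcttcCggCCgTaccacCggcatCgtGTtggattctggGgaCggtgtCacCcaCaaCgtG
Actc1: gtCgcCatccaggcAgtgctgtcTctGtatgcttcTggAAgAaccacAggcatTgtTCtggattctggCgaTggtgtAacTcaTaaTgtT

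The Tpm1 and Tpm3 forms shown here differ in their last 83 coding bases. In the striated forms of 284 residues these bases come from a 79-base exon and 4 coding bases of the exon after it. In the forms shown without that exon they come from a different last exon. The 248-residue forms NM_001164254.1 of Tpm1 and NM_001253740.1 of Tpm3 hold the 79-base exon too, so it alone does not mark a striated form. NM_001164255.1 of Tpm1, without it, has 74 coding bases in its last coding exon. Capitals mark the bases that differ between both ends of the same gene, 47 in Tpm1 and 45 in Tpm3, each sequence closing with its stop codon:
Tpm1 NM_001164248.1, with the 79-base exon: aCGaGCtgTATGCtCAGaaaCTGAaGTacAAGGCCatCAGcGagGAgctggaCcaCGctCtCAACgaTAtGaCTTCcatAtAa
Tpm1 NM_024427.4, without it: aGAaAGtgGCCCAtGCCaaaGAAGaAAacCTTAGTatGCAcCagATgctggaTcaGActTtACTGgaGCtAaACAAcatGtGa
Tpm3 NM_001293748.1, with the 79-base exon: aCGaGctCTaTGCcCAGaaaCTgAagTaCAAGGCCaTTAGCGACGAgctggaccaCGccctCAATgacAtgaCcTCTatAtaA
Tpm3 NM_001253738.1, without it: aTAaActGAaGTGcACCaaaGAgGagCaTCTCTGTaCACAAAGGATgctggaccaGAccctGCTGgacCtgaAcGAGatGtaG

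A single whole transcript of each gene was also cut into all its 50-base words. For Tpm1 it was NM_001164248.1 and for Tpm2 NM_009416.4, and the other transcripts were not cut. Of the words of Actc1, Tpm1 and Tpm2, 0% were found in a transcript of another gene, against 2.22% for Acta1, 0.0675% for Actn2 and 0.0705% for Actn3. Tpm3 was different, since 66.8% of the words of NM_001253738.1 also occur in a transcript of another gene, most often in the copies Tpm3-rs7, Gm7848 and Gm7839. None of those 3 copies is listed by name among the genes analysed here, and how their reads were assigned was not tested.

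Skeletal actin, both major tropomyosins and both actinins were lower in Gpr174-/Y muscle, cardiac actin did not pass the test, and Tpm3 was higher. The 5 genes that fell did so by 2.01-fold to 2.82-fold, whereas Tpm3 rose 1.29-fold. Together the 7 genes took 6.95% to 7.47% of all counts in WT libraries and 3.67% to 4.22% in Gpr174-/Y libraries. At an adjusted p under 0.05 (edgeR's quasi-likelihood test, Benjamini-Hochberg adjustment over 14395 genes), 6 of the 7 were called, 5 lower and 1 higher, where 54.6% of all genes tested were called, 27.6% lower and 27% higher. That even split depends on the scaling: with total counts 7303 genes were called higher and 2010 lower, and on log2(FPKM + 1) 6817 and 1823, while the 7 genes kept 5 calls lower and 1 higher. All 5 that fell were also past a log2 fold change of -1, as were 4.84% of all genes tested, none of the 7 was past a log2 fold change of 1, as were 3.45% of all genes, and the median of the 7 was -1.07 against 0.00 over all genes. With total counts, and on the FPKM scale, 2 of the 5 (Tpm1 and Actn3) were past -1. The groups did not overlap for 6 of the 7, as for 65.6% of all genes. With replicates 1 and 3 of each group alone, 0 of the 7 were called, as were 0 of 14447 genes in all. An unadjusted p under 0.05 by edgeR was found for 5 of the 7 and for 5026 of all genes.

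**Figure D1:**
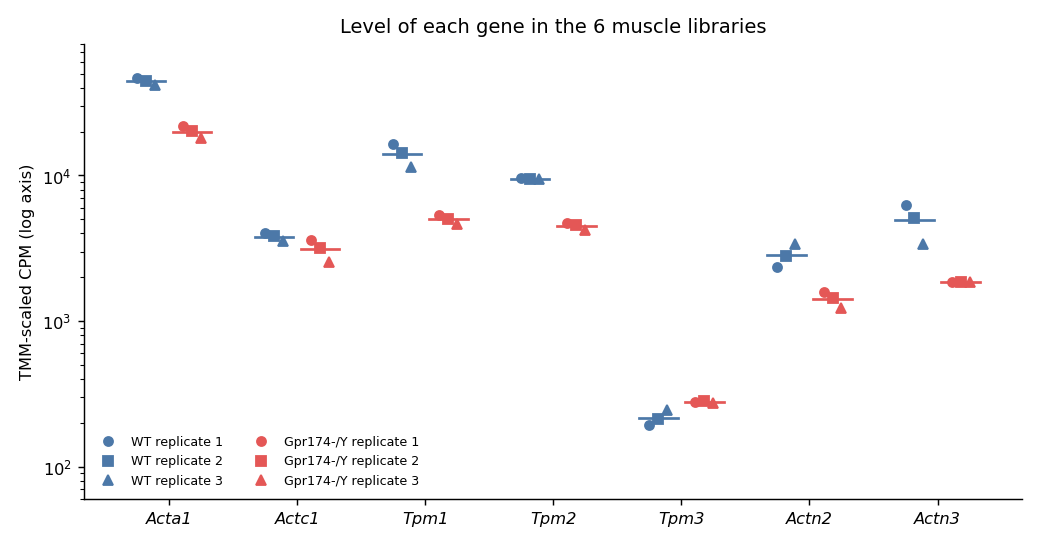
TMM-scaled CPM on a log axis for the 7 genes, with 1 point per library and a line at each group's mean. The Gpr174-/Y points lie below all WT points for Acta1, Tpm1, Tpm2, Actn2 and Actn3, above them for Tpm3, and overlap with them for Actc1.

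Acta1, the actin of adult skeletal thin filaments, was the most abundant of the 7. It stood at 46770, 44597 and 41616 CPM in WT replicates 1, 2 and 3 and at 21748, 20199 and 17982 CPM in the Gpr174-/Y replicates. Every Gpr174-/Y library lay below every WT library, and the gap between the groups was wider than the spread within either. The gene fell 2.22-fold, a log2 fold change of -1.15 (standard error 0.15, adjusted p = 0.00162 by edgeR). Nearly all of it came from a single transcript, NM_009606.3, which held 99.5% of the WT counts.

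Actc1, the cardiac form that regenerating fibres use too, did not pass the test. It measured 4043, 3828 and 3532 CPM in WT and 3619, 3192 and 2557 CPM in Gpr174-/Y replicates 1, 2 and 3. The ranges of the groups overlapped, since Gpr174-/Y replicate 1 was above WT replicate 3. Its difference was -0.28 on the log2 scale (standard error 0.15, adjusted p = 0.144 by edgeR), and it lay between -0.40 and -0.01 over 17 alternative settings, none of which called the gene.

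The make-up of the actin pair differed between the groups. Actc1 made up 7.96%, 7.91% and 7.82% of the summed Acta1 and Actc1 counts in WT, and 14.3%, 13.7% and 12.5% in Gpr174-/Y. The shares of the groups did not overlap, and their means differed by 5.56 percentage points (2-sided exact permutation test with p = 0.1, which is the lower limit for 3 libraries against 3). A share of this kind does not depend on how the libraries were scaled. The SD of the shares was 0.0666 percentage points in WT and 0.924 in Gpr174-/Y (n = 3 each). On the FPKM scale, which divides by transcript length, Acta1 exceeded Actc1 by a factor of 11.4 to 11.6 in WT and of 5.92 to 6.93 in Gpr174-/Y.

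**Figure D2:**
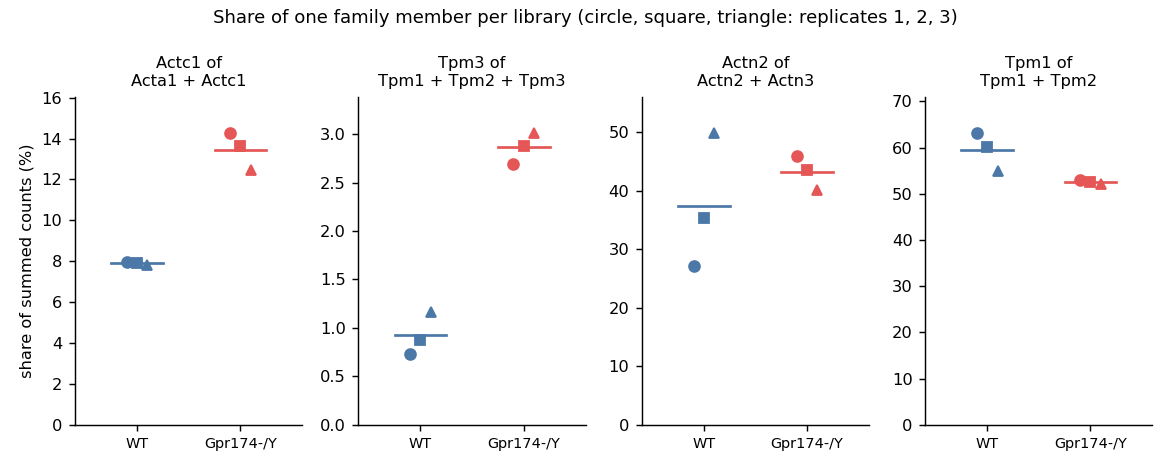
Share of summed counts (percent) taken by 1 member of each family in each library, with a line at the group mean and a separate axis from 0 for each share. The groups are apart for Actc1, Tpm3 and Tpm1, and the Actn2 share overlaps because WT libraries run from 27.2% to 49.9%.

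Both actin promoters carry a CArG box, the element bound by serum response factor (SRF), so their sequence is shown beside these values. The 150 bases just before each transcription start (RefSeq, GRCm38.p6, minus strand of both genes) are given 5′ to 3′ with the CArG box in capitals. They are chr8:123894776-123894925 for Acta1 and chr2:114052876-114053025 for Actc1:
Acta1: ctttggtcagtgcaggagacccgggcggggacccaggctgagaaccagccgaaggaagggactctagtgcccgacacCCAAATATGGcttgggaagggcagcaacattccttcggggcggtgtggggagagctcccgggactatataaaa
Actc1: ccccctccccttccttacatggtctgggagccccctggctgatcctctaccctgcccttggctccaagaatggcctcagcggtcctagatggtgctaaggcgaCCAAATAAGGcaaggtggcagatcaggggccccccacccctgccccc

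The box began 73 bases before the start in Acta1 and 47 bases before it in Actc1. Among 32851 mouse promoters, 1.47% hold a CArG box in the 250 bases before the start, searched on both strands. TATAAA, also searched on both strands, occurs in 12.4% of them, among them Acta1 but not Actc1. The E-box CANNTG occurs in 66.2% of them, with 2 matches in Acta1 and 0 in Actc1. No CArG box was found in the promoter windows of Tpm1, Tpm2, Tpm3 and Actn2. Actn3 was without an entry. A match is a run of letters and does not show that a factor was bound. Srf, which encodes the factor, measured 134, 136 and 134 CPM in WT and 130, 125 and 107 CPM in Gpr174-/Y, and was not called (log2 fold change -0.16, standard error 0.08, adjusted p = 0.129 by edgeR). Its sign changed with total-count scaling and on the FPKM scale.

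Tpm1 had the largest estimated decrease of the 7 genes. Its level was 16380, 14314 and 11465 CPM in WT and 5317, 5039 and 4611 CPM in Gpr174-/Y. WT libraries differed among themselves by a wide margin, yet the lowest of them stood well above the highest Gpr174-/Y library. The decrease was 2.82-fold, with a log2 fold change of -1.49 (standard error 0.16, adjusted p = 0.00108 by edgeR).

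Tpm2, the beta chain, was at nearly the same level in the WT libraries after TMM scaling, with 9569, 9508 and 9383 CPM. In Gpr174-/Y it was at 4732, 4544 and 4243 CPM, again with no overlap. It fell 2.11-fold, with a log2 fold change of -1.07 (standard error 0.11, adjusted p = 0.000871 by edgeR). Tpm1 made up 63.1%, 60.1% and 55.0% of Tpm1 and Tpm2 counts in WT and 52.9%, 52.6% and 52.1% in Gpr174-/Y. The shares of the groups did not overlap, and their means differed by -6.88 percentage points, Gpr174-/Y minus WT (p = 0.1 in the same exact test).

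Tpm3, whose striated form is the slow-fibre alpha chain, was the least abundant and went the other way. It was at 192, 211 and 245 CPM in WT and at 278, 284 and 275 CPM in Gpr174-/Y. The Gpr174-/Y libraries were close together and all above the highest WT library. The rise was 1.29-fold (log2 fold change 0.37, standard error 0.09, adjusted p = 0.0145 by edgeR). The call was lost without WT replicate 2 (adjusted p = 0.0587) and without Gpr174-/Y replicate 2 (adjusted p = 0.057), and it was kept in 14 of 17 alternative settings. Of the counts of all 3 tropomyosins, Tpm3 took 0.734%, 0.878% and 1.16% in WT and 2.70%, 2.88% and 3.01% in Gpr174-/Y. The difference in means was 1.94 percentage points (p = 0.1 in the same exact test).

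Slow-fibre genes gave no shared direction beside this rise. Of 7 slow-fibre markers, 1 rose and 3 fell, where 27% of all genes tested were called higher and 27.6% lower. Their summed level was 996 to 1259 CPM in WT and 1185 to 1255 CPM in Gpr174-/Y. Myh7, the slow myosin heavy chain, was at 58.2, 40.0 and 17.0 CPM in WT and 10.1, 13.4 and 19.0 CPM in Gpr174-/Y, with overlap.

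Transcripts showed where within Tpm1 and Tpm3 the counts lay. In all, 29 of the 31 transcripts could be tested, and 17 were called, 3 higher and 14 lower, where 12.4% of 35524 transcripts were called (6.41% lower, 6.01% higher). Past a log2 fold change of 1 in size, 3.03% of all transcripts were called lower and 2.88% higher, and the groups did not overlap for 39.9%. A transcript's count rests on an estimated split of the reads it shares with others. No transcript of the 7 genes was called without WT replicate 2, or without any 1 of the Gpr174-/Y replicates, and between 19 and 22 of them then had an unadjusted p under 0.05. How many of all transcripts were called under those settings was not counted, so this loss cannot be read as particular to these genes.

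The 3 main Tpm1 transcripts fell together with their gene. NM_001164248.1, a striated form of 284 residues with the 79-base exon, was at 10771, 9413 and 7530 CPM in WT and 3442, 3240 and 2990 CPM in Gpr174-/Y (log2 fold change -1.52, standard error 0.15, adjusted p = 0.0154 by edgeR). It held 66.1% of the gene's counts in WT and 63.4% in Gpr174-/Y. NM_001164251.1, with the same end, and XM_006511041.2, whose exons were not matched, fell by 1.63 and 1.60 on the log2 scale.

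NM_024427.4, a Tpm1 form without the 79-base exon, had a positive estimate that did not pass the test. It was at 263, 335 and 386 CPM in WT and 446, 433 and 420 CPM in Gpr174-/Y. The groups did not overlap, but the difference was not called (log2 fold change 0.40, standard error 0.15, adjusted p = 0.165 by edgeR). Its share of Tpm1 counts was 1.62%, 2.35% and 3.36% in WT and 8.24%, 8.44% and 8.90% in Gpr174-/Y. NM_001164255.1, of 281 residues and likewise without that exon, fell from 24.6, 25.4 and 23.7 CPM to 15.0, 16.7 and 17.8 CPM (log2 fold change -0.57, adjusted p = 0.0247 by edgeR). The estimates of both forms without the 79-base exon thus went opposite ways, and only the decrease was called. NM_001164255.1 was among the minor Tpm1 rows, each under 5% of the gene and named after their values were seen. NM_001164254.1, with the exon, and XM_006511040.4 fell too, with log2 fold changes of -1.66 and -2.71 (adjusted p = 0.0152 and 0.0229 by edgeR). XM_006511045.3 was called higher (log2 fold change 1.07, adjusted p = 0.0203 by edgeR), at 5.05 to 5.85 CPM in WT and 10.7 to 11.9 CPM in Gpr174-/Y, a lower level than that of the minor rows that fell.

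**Figure D3:**
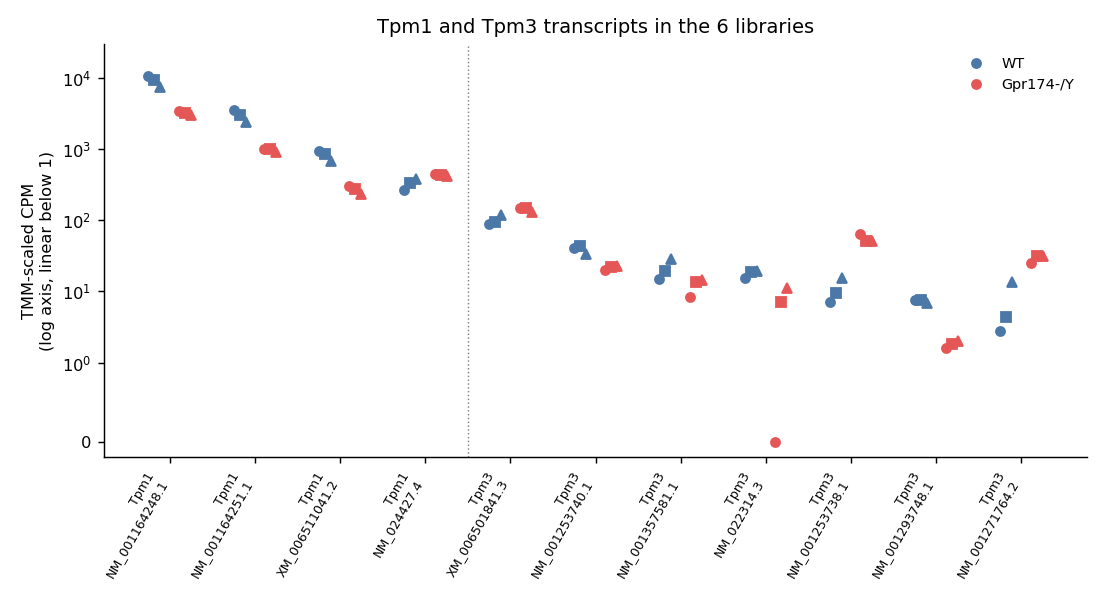
TMM-scaled CPM (log axis, linear below 1) of Tpm1 and Tpm3 transcripts, with 1 point per library and circles, squares and triangles for replicates 1, 2 and 3. The 3 main Tpm1 transcripts lie lower in Gpr174-/Y, NM_024427.4 lies higher without being called, and the Tpm3 transcripts split, with NM_001253738.1 higher and NM_001253740.1 lower.

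Tpm3 transcripts stood at a far lower level and went both ways. NM_001253738.1, a short form of 248 residues without the 79-base exon, was at 7.20, 9.53 and 15.6 CPM in WT and at 63.4, 51.7 and 51.4 CPM in Gpr174-/Y. It rose 5.15-fold (log2 fold change 2.36, standard error 0.31, adjusted p = 0.0197 by edgeR), from 4.90% to 19.5% of the gene's counts. NM_001253740.1, also of 248 residues but with the 79-base exon, was at 40.5, 43.2 and 33.7 CPM in WT and 20.2, 22.1 and 22.9 CPM in Gpr174-/Y, and it fell 1.80-fold (log2 fold change -0.85, standard error 0.12, adjusted p = 0.0199 by edgeR). The exons of NM_001253740.1 were read from a GENCODE transcript that more than 1 RefSeq record matches, so they are less certain.

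NM_001293748.1, a striated Tpm3 form with 284 residues and the 79-base exon, was a minor row named after its values were seen. It stood at 7.63, 7.52 and 6.92 CPM in WT and 1.61, 1.82 and 2.0 CPM in Gpr174-/Y (log2 fold change -2.02, standard error 0.24, adjusted p = 0.0174 by edgeR). So this row fell, while the gene's total rose. The row held 3.48% of the gene's counts in WT and 0.636% in Gpr174-/Y. Another minor row, XM_006501839.3, likewise named after its values were seen, was called higher. Its mean was 3.68 CPM in WT and 6.98 CPM in Gpr174-/Y (log2 fold change 0.92, adjusted p = 0.0443 by edgeR). The largest Tpm3 row, XM_006501841.3, held 46.9% of the gene in WT and 50.1% in Gpr174-/Y and was not called (log2 fold change 0.50, adjusted p = 0.0658 by edgeR). NM_001271764.2 (log2 fold change 2.09, adjusted p = 0.103), NM_001357581.1 (-0.77, 0.233) and NM_022314.3 (-1.54, 0.628) did not pass edgeR's test either, and NM_022314.3 had 0 CPM in Gpr174-/Y replicate 1. NM_022314.3 lacks the 79-base exon too, but its estimate had a standard error of 1.46. Whether Tpm3 forms without that exon share a direction was therefore not settled. The ends of XM_006501839.3, XM_006501841.3, NM_001271764.2 and NM_001357581.1 were not read. Whether they hold the 79-base exon, or are striated forms, is not known here.

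Tpm2 and Actn2 each had a pair of main transcripts. XM_006537780.1 and NM_009416.4 of Tpm2 held 67.6% and 32.3% of its WT counts and fell by 1.06 and 1.01 on the log2 scale, both with an adjusted p of 0.00977 by edgeR. For Actn2, NM_033268.4 fell by 0.95 (adjusted p = 0.0219), and XM_011244263.3 had a log2 fold change of -1.06 (adjusted p = 0.0886). Actc1 and Actn3 were listed with 1 transcript each.

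Actn2, the actinin of all striated fibres, was lower in Gpr174-/Y muscle, although WT libraries were far apart. It was at 2340, 2782 and 3389 CPM in WT and 1578, 1429 and 1236 CPM in Gpr174-/Y. It fell 2.01-fold, with a log2 fold change of -1.0 (standard error 0.16, adjusted p = 0.003 by edgeR). The WT library with the most Actn2 was replicate 3.

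Actn3, the actinin of fast glycolytic fibres, was at 6274, 5095 and 3406 CPM in WT, where replicate 3 was the lowest. In Gpr174-/Y it was at 1860, 1856 and 1844 CPM, the tightest group of any of the 7 genes relative to its mean. The WT SD was 1442 CPM and the Gpr174-/Y SD 8.46 CPM (n = 3 each). Actn3 fell 2.66-fold, with a log2 fold change of -1.41 (standard error 0.22, adjusted p = 0.00246 by edgeR).

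Actn2 and Actn3 ranked the WT libraries in opposite orders, and their ratio ranged more widely there. Actn3 counts per Actn2 count were 2.68, 1.83 and 1.00 in WT and 1.18, 1.30 and 1.49 in Gpr174-/Y. The Actn2 share of both was 27.2%, 35.3% and 49.9% in WT and 45.9%, 43.5% and 40.1% in Gpr174-/Y, so the groups overlapped and the difference of 5.72 percentage points did not pass the test (2-sided exact permutation test, p = 0.5). It was 11.9 points without WT replicate 3 and 0.573 points without WT replicate 1. Myh4, the fastest myosin heavy chain, was at 31348, 22677 and 10481 CPM in WT and 6770, 7537 and 8714 CPM in Gpr174-/Y, and within each group its order was that of the ratio. Its part in the ratio was not tested.

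**Figure D4:**
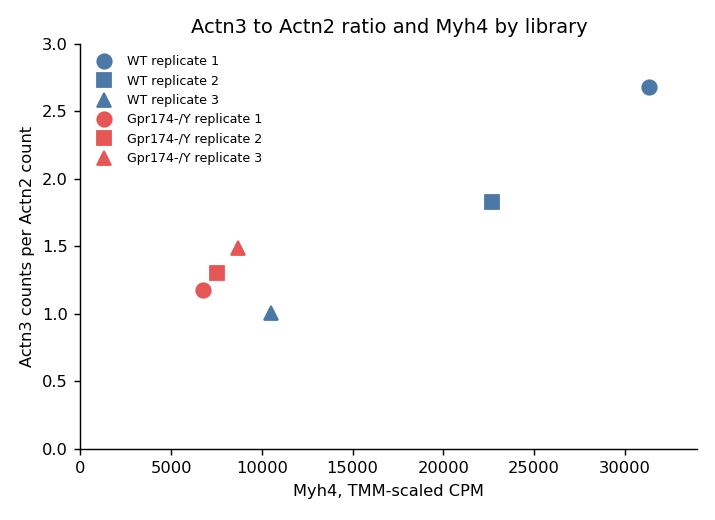
Actn3 counts per Actn2 count against Myh4 in TMM-scaled CPM, with 1 point per library. Points of WT run from 1.00 to 2.68 on the vertical axis, and the Gpr174-/Y points, from 1.18 to 1.49, lie within that range at lower Myh4.

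Per unit of length, both groups had the same order of levels. Mean FPKM was 28098 for Acta1, 10885 for Tpm1, 5415 for Tpm2, 2444 for Actc1, 1565 for Actn3, 975 for Actn2 and 99.5 for Tpm3 in WT. In Gpr174-/Y it was 15308, 4598, 3091, 2426, 718, 580 and 152 for the same genes. Neighbours in this order did not overlap between libraries of a group, except Actn3 and Actn2 in WT, where Actn3 was at 1142 to 1929 and Actn2 at 755 to 1226 FPKM. In Gpr174-/Y the distance between Tpm2 and Actc1 was shorter, since Tpm2 fell and Actc1 was close to its WT mean on this scale.

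The cytoplasmic and smooth muscle relatives went the opposite way from the 5 genes that fell. Actins outside striated fibres, non-muscle tropomyosin and non-muscle actinins build the cytoskeleton of other cells and of growing fibres. All 7 relatives tested rose, with a median log2 fold change of 0.66 and no overlap between groups for 7 of 7, where 27% of all genes tested were called higher and 65.6% did not overlap. Acta2, smooth muscle actin, was at 225, 269 and 331 CPM in WT and 686, 639 and 569 CPM in Gpr174-/Y (log2 fold change 1.2, standard error 0.15, adjusted p = 0.00139 by edgeR). Actn1, a non-muscle actinin, rose from 70.1, 93.6 and 129 CPM to 203, 197 and 189 CPM (log2 fold change 1.01, standard error 0.20, adjusted p = 0.00591 by edgeR).

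Cytoplasmic beta-actin and gamma-actin, Actb and Actg1, rose by 0.66 and 0.58 on the log2 scale, and Tpm4, a non-muscle tropomyosin, by 0.52. Enteric smooth muscle actin Actg2 was scarce, at 1.12 to 3.76 CPM in WT and 4.79 to 7.17 CPM in Gpr174-/Y, with a log2 fold change of 1.2 (adjusted p = 0.026 by edgeR). Actn4, another non-muscle actinin, rose least, by 0.24 (adjusted p = 0.0309 by edgeR). The calls of Actg2 and Actn4 were both lost without WT replicate 2 and without Gpr174-/Y replicate 1 or 2. All 7 had a positive estimate under each of the 17 alternative settings.

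Markers of cells other than mature fibres were counted in the same fit, where 27% of all genes tested were called higher and 27.6% lower. Macrophage markers rose in 5 of 5 (summed level 487 to 858 CPM in WT and 1195 to 1279 CPM in Gpr174-/Y), and endothelial markers fell in 4 of 4 (732 to 886 and 452 to 514 CPM). Of 6 smooth muscle markers 3 rose and 1 fell (518 to 635 and 900 to 1037 CPM). These include Acta2 and Actg2 themselves. Of 4 fibroblast markers 2 rose and 2 fell (11587 to 16450 and 20433 to 23395 CPM), and of 3 adipocyte markers 2 rose (36.2 to 49.2 and 54.9 to 90.2 CPM).

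Regenerating-fibre markers, which include embryonic and perinatal myosins, rose in 5 of 7, where 27% of all genes tested were called higher. Their sum was 2639 to 5271 CPM in WT and 5205 to 6196 CPM in Gpr174-/Y, with overlap at WT replicate 3. Of 5 cardiac markers 2 could be tested and 1 rose (74.5 to 132 and 242 to 253 CPM). T-cell markers were at or near 0 (1.80 to 2.50 and 1.39 to 2.12 CPM, with 0 of 2 tested called), as were neutrophil markers (at most 1.18 CPM in any library, with Ly6g at no more than 3 counts and none of the list tested). The part of these cells in the values of the actins, tropomyosins and actinins was not tested.

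Most genes that build and maintain thin filaments fell too. Of 25 such genes tested, 18 fell, 4 rose and 3 were not called (Srf, Mrtfa and Xirp1), and the median log2 fold change was -0.44, where 27.6% of all genes tested were called lower and 27% higher. With total-count scaling, and on the FPKM scale, 9 fell and 5 rose. Of all 14395 genes, total-count scaling called 2010 lower and 7303 higher. On log2(FPKM + 1), 1823 of 12525 genes were called lower and 6817 higher. The largest decrease was in Xirp2, an actin-binding protein of fibre junctions, at 1140, 1416 and 1800 CPM in WT and 496, 454 and 394 CPM in Gpr174-/Y (log2 fold change -1.70, standard error 0.18, adjusted p = 0.00102 by edgeR). Nrap, which serves in assembling myofibrils, and Tmod4, which caps the pointed ends of filaments in skeletal muscle, fell by 1.07 and 0.96 on the log2 scale.

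Neb encodes nebulin, the giant protein along the thin filament. It was at 5338, 4667 and 3786 CPM in WT and 2475, 2568 and 2745 CPM in Gpr174-/Y (log2 fold change -0.82, standard error 0.14, adjusted p = 0.0039 by edgeR), with every Gpr174-/Y library below every WT library. The increases were largest in Cfl1, the non-muscle cofilin that severs filaments (0.58, adjusted p = 0.00332), in Capza1, a capping protein subunit (0.47, adjusted p = 0.00192), and in Wdr1, which works with cofilin (0.35, adjusted p = 0.0431), all by edgeR. The call of Wdr1 was lost without any 1 library other than WT replicate 3.

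**Figure D5:**
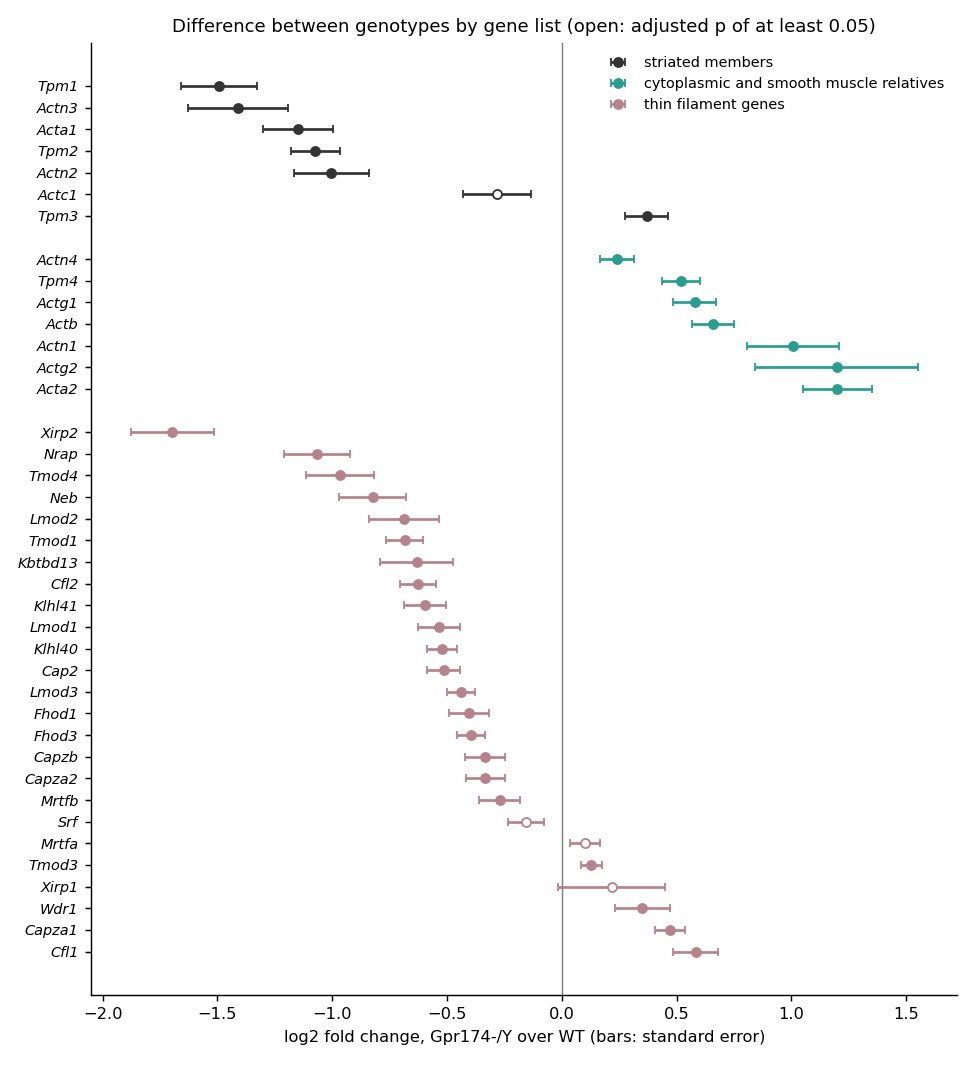
Log2 fold change of Gpr174-/Y over WT, with its standard error, for the 7 striated genes, their 7 cytoplasmic and smooth muscle relatives and 25 thin filament genes. Open circles were not called. The 7 relatives lie to the right of 0, and 5 striated genes lie at or below -1.0.

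For each of the 7 genes, the genes most like it in log2 CPM over the 6 libraries were sought among 9965 genes with a mean of at least 10 CPM. The pair with the highest Pearson r was Rasip1 and Slc9a3r2 for Acta1, Prrx1 and Rpusd4 for Actc1, Tnnt3 and Psmb7 for Tpm1, and Prnp and Smpx for Tpm2. It was Erf and Arsb for Tpm3, Abra and Dnaja4 for Actn2, and Cacng6 and Cpe for Actn3. These libraries share 1 genotype contrast, so high values were common: r was over 0.95 for 17.0% of genes with Acta1, 20.9% with Tpm1, 14.3% with Tpm2, 17.7% with Tpm3 and 21.5% with Actn3. Actc1 and Actn2 stood apart, with 0.903% and 2.53%.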

How the data were processed

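RNA-seq of ischemic gastrocnemius from 3 WT and 3 Gpr174-/Y mice was analysed. In 1 deposited table, each RefSeq transcript has expected counts (estimated reads, not normalized), FPKM and TPM per library. The deposited FPKM values are scaled for transcript length and library size by the authors. The deposited TPM values and the authors' group means were not used. The submitters' processing notes name HISAT2 2.0.4, Bowtie2 2.2.5, RSEM 1.2.12 and GRCm39, without their roles. Strand use is not given in the sources used here, so reads of overlapping antisense genes cannot be told apart. The labels name an Illumina kit and the methods a BGISEQ-500 instrument.

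Counts were summed by Entrez identifier, rounded and compared with edgeR 4.0.16 (TMM, its filter on low counts, robust quasi-likelihood test) in R 4.3.3, with genotype as the only term. The study's own test, DEGseq, was not run here. Benjamini-Hochberg adjustment covered all 14395 genes, or all 35524 transcripts, tested, and an adjusted p under 0.05 was called. Standard errors were derived from the fold change and its F statistic. The common dispersion was 0.00967 for genes and 0.607 for transcripts. Shares were compared with 2-sided exact permutation tests. The methods give 3 mice a group, but the labels number the libraries without naming animals, so p-values measure the spread between these libraries, which may be partly technical. The tests were tested on simulated data. These had few changed genes and a dispersion near that of the genes but far below that of the transcripts. They do not vouch for the transcript tests. Replicates of a group differed by more than sampling noise, with a chi-square per gene of 4.15 or more in every pair.

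The genes, lists and alternatives were chosen with earlier results of these data known. Every member, every relative tested, transcripts holding at least 5% of their gene in either group, the 3 largest increases and decreases among called thin filament genes, Neb, Srf and the 2 genes most like each member are named. Myh4 and Myh7 are marker genes named after their values were seen. Alternatives were DESeq2 1.42.0 (Wald test, or only its size factors), total-count and upper-quartile scaling, limma 3.58.1 (voom, log2(FPKM + 1) and log2(FPKM + 0.1)), a floor of 10 counts in every library, no filter, a replicate block, each library left out and replicates 1 and 3 alone. Exons were read from GENCODE M21 (GRCm38) by RefSeq accession and promoters from RefSeq GRCm38.p6. Since the files use GRCm39, no other coordinates are given. Protein sequences were not used here.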

Additional observations from a re-analysis of the deposited data

How the results depend on the processing

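No member changed sign under any of the 17 alternatives. Acta1, Tpm1, Tpm2, Actn2 and Actn3 were called in 16 of 17, and their calls were lost with replicates 1 and 3 of each group alone (adjusted p from 0.0571 to 0.0855, 2 libraries against 2). That comparison called 0 members, 0 members past both thresholds, 0 of their transcripts, 0 relatives, 0 thin filament genes and 0 of 14447 genes by edgeR, although 5, 5, 16, 5, 17 and 5026 had an unadjusted p under 0.05. Total counts, log2(FPKM + 1) and log2(FPKM + 0.1) left 2 members past both thresholds each, against 5, and 14 thin filament genes called each, against 22. Total counts moved the median log2 fold change of all genes by 0.27. Srf, which was not called, was at 0.11, 0.12 and 0.13 under these settings. Leaving out 1 library at a time gave 5 to 6 members called, 4 to 5 past both thresholds, 0 to 19 transcripts, 5 to 7 relatives, 16 to 22 thin filament genes and 5457 to 9165 genes in all. The share differences ran from 5.15 to 6.06 points for Actc1, 1.84 to 2.06 for Tpm3, 0.573 to 11.9 for Actn2 and -9.08 to -5.02 for Tpm1.

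The labels do not say whether replicate numbers pair the mice. Deviations from the group means had correlations of -0.024, -0.013 and -0.035 for equal numbers. For unequal numbers they ran from -0.069 to 0.063, and such values cannot settle whether libraries were paired. A replicate block called 6 members, where 6868 of 14620 genes were called. It called 0 of the members' transcripts (20 with an unadjusted p under 0.05), against 17. The block lost the calls of Actg2 (adjusted p = 0.0774), Actn4 (0.0857) and Wdr1 (0.0833) by edgeR. DESeq2's Wald test called 6 members and 21 transcripts, where 6758 of 18034 genes were called. For limma voom these numbers were 6 and 19, where 7881 of 14395 genes were called. All transcripts called were not counted under the alternatives. For member genes, 111 alternative values kept side and direction and 8 were weaker. For the other named genes these numbers were 224 and 28, with the 3 changes of sign of Srf. For transcripts they were 209 and 61, with 18 stronger.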
